A study of Mus musculus with 30 samples.

Results

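The Lachnospiraceae NK4A136 group is a genus-level name for bacteria of the family Lachnospiraceae. Its sequence variants were followed in stool of female mice that lack Gpr15l (KO, labelled Gpr15l-/-) and of wild-type (WT) females. The members were all variants whose deposited taxon name holds this genus and that had at least 1 read in any of the 30 libraries. That rule used the name alone and no difference between groups. It gave 67 of the 949 bacterial variants with reads. Of these, 32 of 483 were found in the 20 libraries of weaning and co-housing and 35 of 466 in the 10 libraries of re-separation, and 0 had reads in both sets. Single variants were therefore compared within each set, and only the summed genus was set side by side over all times. A further 130 variants carried the name without any read here.

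Mice of both genotypes were weaned at about 4 weeks of age into cages that held KO and WT animals together, 2 to 7 in each, for 4 to 5 weeks (co-housing). The genotypes were then parted for 6 weeks (re-separation). The weaning libraries are 1 to 5 (KO) and 6 to 10 (WT), the co-housed ones 11 to 15 (KO) and 16 to 20 (WT), and the re-separated ones 21 to 25 (KO) and 26 to 30 (WT). Gpr15l encodes a peptide made by epithelial cells that binds the lymphocyte receptor GPR15. The genotype rests on the label, since bacterial 16S reads do not show the mouse gene. Cage, litter and the identity of a mouse across times are not in the labels, and p-values therefore measure only how these libraries spread. No mice were kept apart over the co-housing weeks for comparison, and the effects of age and of co-housing cannot be told apart. The re-separation libraries form a set with its own variants, so that time and the library set cannot be told apart either.

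Lachnospiraceae are anaerobic Clostridia of the large intestine that ferment plant fibre and other carbohydrates. Many members of the family release short-chain fatty acids such as butyrate, which feeds the cells lining the colon. The NK4A136 group is common in laboratory mice and is known mostly from its 16S sequences. Mice that share a cage eat each other's faeces and so pass on gut bacteria. Each variant is a distinct V4 stretch of the 16S rRNA gene, and 1 genome with several gene copies can give more than 1 variant. They are named here by their row in the deposited table, which holds taxon names and read counts. Of the 67 members, 9 in the first set and 16 in the second carried the species label of an uncultured bacterium, 1 in each set was labelled a Clostridiales bacterium, and the other 22 and 18 had no species label.

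The first set of libraries held 10491 to 52364 bacterial reads each and the re-separation set 39703 to 73588. Shares are percentages of these reads, from which mitochondrial reads (0 to 0.829% of a library) were left out. For a single library the Wilson 95% interval of the genus share reached at most 0.516 percentage points to either side, counting error only. Reads named as chloroplast or without a kingdom were at 0 in every library.

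At weaning the genus held about the same mean share of the community in both genotypes, and after co-housing it was among the leading genera in both. The 5 KO libraries at weaning held 0%, 1.04%, 3.60%, 0.474% and 4.74% of bacterial reads in the genus, a mean of 1.97% ± 2.08 (SD, n = 5). The 5 WT libraries held 0.996%, 2.92%, 2.57%, 2.04% and 0.879%, a mean of 1.88% ± 0.919 (SD, n = 5). Some KO libraries lay below and some above all WT values, and library 1 had 0 of 21133 reads, which allows a share of up to 0.0142%. After co-housing the KO libraries held 9.33%, 12.8%, 18.2%, 15.7% and 18.8%, a mean of 15.0% ± 3.95 (SD, n = 5). The WT libraries held 24.4%, 10.6%, 11.2%, 3.86% and 23.6%, a mean of 14.7% ± 8.94 (SD, n = 5). By mean share the genus ranked 11 (KO) and 8 (WT) among genus-level names at weaning and 2 in both genotypes after co-housing. After re-separation it ranked 5 in both, with 2.22%, 1.81%, 7.93%, 2.09% and 6.96% in the KO libraries and 4.33%, 2.28%, 12.9%, 9.62% and 5.14% in the WT libraries. The group means were then 4.20% ± 2.98 and 6.86% ± 4.33 (SD, n = 5 each), and the ranges overlapped.

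The share of bacterial reads passed no test between the genotypes at any time. KO minus WT was 0.0881 percentage points at weaning, 0.242 in the co-housed and -2.66 in the re-separated libraries, with p = 0.921, 0.952 and 0.302 by exact two-sided permutation tests (adjusted over the 3 times 0.952, 0.952 and 0.905). In the fit of read counts over 72 genera with edgeR's quasi-likelihood test, the log2 fold change of KO over WT was -1.04 ± 0.72 (SE) at weaning, with adjusted p = 0.283. With library size alone as the scaling it was 0.06, where the median over all genera moved up by 0.43. After co-housing it was 0.16 ± 0.71 (adjusted p = 1) and after re-separation -0.59 ± 0.71 (edgeR, adjusted p = 0.808). Of all genera, 23.6% were called at weaning and 1.39% after co-housing, while after re-separation 0 of 72 were called by edgeR, with 5 at an unadjusted p under 0.05.

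The rise from weaning to co-housing was called in both genotypes. In KO mice the log2 fold change was 3.21 ± 0.78 (SE), with adjusted p = 0.00149 by edgeR, and the call held in all 18 alternatives. In WT mice it was 2.00 ± 0.74, with adjusted p = 0.0317 by edgeR, where 31.9% (KO) and 29.2% (WT) of all genera were called in the same comparisons. The WT call was lost when any 1 of libraries 6, 7, 8, 10, 16 or 20 was left out, where log2 fold changes were 1.76 to 2.08, and with DESeq2's scaling or test and limma-voom. The change of the genotype difference between these times was 1.21 ± 1.01 and was not called (edgeR, adjusted p = 0.462), beside 4.17% of genera that were.

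From co-housing to re-separation the log2 fold change was -0.79 ± 0.72 in WT (adjusted p = 0.550) and -1.54 ± 0.73 in KO (edgeR, adjusted p = 0.122), where 1.39% and 19.4% of genera were called. The KO value passed the threshold in the fit of those groups alone (-1.52, edgeR adjusted p = 0.0396) and without libraries 1 and 19 (-1.54, adjusted p = 0.0321). Set against weaning, the re-separation libraries gave 1.21 ± 0.72 in WT (adjusted p = 0.230) and 1.67 ± 0.73 in KO (edgeR, adjusted p = 0.0891), beside 12.5% and 27.8% of genera called. The KO value was called without library 5 (2.20, edgeR adjusted p = 0.0281) and with limma-voom (3.41, adjusted p = 0.00969). The genotype difference changed by 0.46 ± 1.01 from weaning to re-separation (edgeR, adjusted p = 0.838), with 18.1% of genera called, and by -0.75 ± 1.01 from co-housing to re-separation (adjusted p = 1.00), where 0 of 72 genera were called and 5 had an unadjusted p under 0.05.

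**Figure D1:**
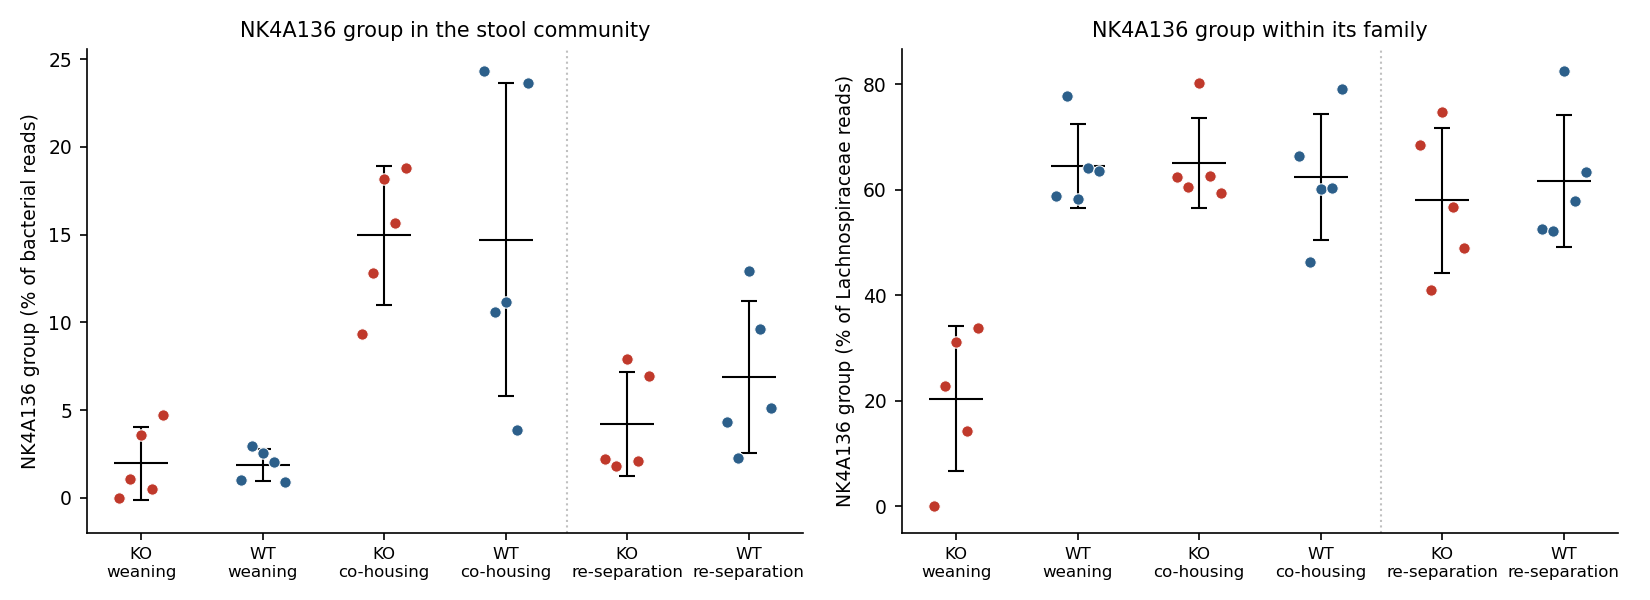
Share of the NK4A136 group in each library (points), with group means (horizontal lines) and SD (bars), n = 5 libraries a group, KO in red and WT in blue. The left panel gives percent of bacterial reads and the right panel percent of reads named Lachnospiraceae; the dotted line parts the re-separation library set. In the right panel the KO weaning libraries (0 to 33.8%) lie below all WT weaning libraries (58.3 to 77.9%).

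Within its own family the genus did separate the genotypes at weaning. It made up 0%, 22.8%, 31.3%, 14.3% and 33.8% of the Lachnospiraceae reads in the 5 KO libraries, a mean of 20.4% ± 13.7 (SD, n = 5). In the 5 WT libraries it made up 58.8%, 77.9%, 58.3%, 64.2% and 63.6%, a mean of 64.5% ± 7.93 (SD, n = 5). The groups did not overlap, and KO was lower by 44.1 percentage points (KO minus WT -44.1, exact permutation p = 0.00794, the smallest that 5 against 5 can give, adjusted p = 0.0238). The call held without any 1 of the 10 libraries, with differences of -47.5 to -39.0. Other Lachnospiraceae held 5.15% ± 3.22 of bacterial reads in KO (2.19 to 9.29%) and 1.00% ± 0.524 in WT (0.503 to 1.84%). These ranges did not overlap either, a description with no test.

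After co-housing the genus made up most of the family in both genotypes, 65.1% ± 8.60 in KO and 62.5% ± 11.9 in WT (SD, n = 5 each; exact permutation p = 0.786). The genotype difference thus changed by 46.7 percentage points from weaning to co-housing. An exact permutation test of the genotype labels within each time over 63504 orderings gave p = 0.00318 (adjusted over 5 measures 0.0159). This permutation, here and for the other measures, assumes no genotype difference at either time. Its p is therefore not exact for an unchanged difference where the genotypes differed at weaning. Without libraries 1 and 19 the change was 41.1 points (exact permutation p = 0.00743, adjusted 0.0372). Other Lachnospiraceae then held 8.12% (KO) and 8.16% (WT) of bacterial reads. After re-separation the share of the family was 58.0% ± 13.8 in KO and 61.7% ± 12.5 in WT (exact permutation p = 0.659), with ranges that overlapped.

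At weaning the genus was built of fewer variants in KO mice. At an equal depth of 10491 reads the KO libraries held 0, 3.00, 6.00, 3.00 and 7.00 expected variants and the WT libraries 6.99, 8.00, 16.9, 11.0 and 7.86. The means were 3.80 ± 2.77 and 10.1 ± 4.06 (SD, n = 5 each), a difference of -6.35 with exact permutation p = 0.0159 and adjusted p = 0.0476. The highest KO library and the lowest WT library were level, and the call was lost without any 1 of libraries 1, 2, 3, 4, 7, 8, 9 or 10 (adjusted exact permutation p = 0.0714, or 0.119 without library 8, where the difference was -4.66). After co-housing the means were 12.8 ± 5.89 and 17.8 ± 3.27 (exact permutation p = 0.135), and after re-separation 17.0 ± 3.97 and 20.6 ± 4.66 (exact permutation p = 0.246). KO was the lower mean at each time, and neither later difference passed the test.

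Reads of the genus at weaning were also more concentrated in the leading variant in KO mice. The leading variant held 59.4%, 57.2%, 48.4% and 38.0% of genus reads in KO libraries 2 to 5, and 28.2%, 31.0%, 20.7%, 19.9% and 35.2% in the WT libraries. These values did not overlap, with means of 50.8% ± 9.73 (SD, n = 4) and 27.0% ± 6.62 (SD, n = 5), exact permutation p = 0.00794 and adjusted p = 0.0238. The inverse Simpson index is the number of equally common variants that would give the same index. It was 3.01 ± 1.07 (n = 4) against 6.74 ± 2.09 (n = 5), with exact permutation p = 0.0159 and adjusted p = 0.0476. Both measures depend on the number of variants as well as on their evenness. KO libraries 2 to 5 held 3, 6, 3 and 7 variants and the WT libraries 7, 8, 17, 11 and 8. Evenness apart from that number was not tested. Library 1 had no reads of the genus and enters neither measure. With a further library left out the leading share stayed at the smallest exact permutation p that such a design allows (0.0536 or 0.0857 adjusted), so its loss of the call says nothing about stability, and the differences were 20.9 to 28.0 percentage points. The index likewise could not pass with a further library left out, and its differences were -4.26 to -3.01. After co-housing the leading variant held 44.8% ± 20.7 in KO and 41.1% ± 4.92 in WT, and after re-separation 29.6% ± 7.36 and 28.6% ± 7.40 (SD, n = 5 each; exact permutation p = 0.802 and 0.857). The changes of these differences from weaning to co-housing were not called for the leading share (-20.1 points, exact permutation p = 0.137), the index (3.22, p = 0.110), the number of variants (1.34, p = 0.791) or the share of bacterial reads (0.154 points, exact permutation p = 0.973).

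At weaning KO libraries together showed 8 members and WT libraries 21, of which 6 were found in both genotypes, 2 in KO alone and 15 in WT alone. Of the 314 other bacterial variants found at weaning, 117 were in both genotypes, 74 in KO alone and 123 in WT alone, so that most other variants were also found in 1 genotype. The difference between the members and the other variants was not tested. Depth at weaning was 10491 to 34075 bacterial reads in KO and 15661 to 52364 in WT. The smallest count of a member was 7 reads in this set and 3 in the re-separation set, so a value of 0 may stand for more reads than the 3 used as a floor here. By similarity of variant shares within the genus (Bray-Curtis distance, where 1 means no shared variants), each of the 9 weaning libraries with reads of the genus was nearest to one of its own genotype. The mean distance was 0.666 within KO, 0.599 within WT and 0.914 between them, a description with no test.

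Of the 32 members, 27 had at least 10 reads in at least 3 of the 20 libraries and were tested. KO differed from WT at weaning in 12 of these 27, where 20.9% of all 292 tested variants were called (edgeR, adjusted p under 0.05). Of the 12, 2 were higher in KO (6.85% of all variants were) and 10 lower (14.0% were). The median log2 fold change over the 27 was -4.23 as fitted and -1.10 with groups at 0 set to the floor, beside -0.16 and 0 over all tested variants. The filter ran over all 20 libraries, so members entered the test through weaning libraries that held them, through co-housed libraries, or through both. A member at 0 in 1 genotype at weaning could be called in 1 direction only. These counts and medians therefore describe the members and are no test of them. In the same comparison 7 of 63 other Lachnospiraceae variants were higher in KO and 7 lower, and of 45 Oscillospiraceae variants 4 were higher and 3 lower. The count of 12 fell to 3 without library 3 or with limma-voom, to 6 without library 5 and to 7 without library 6 or library 8.

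The variants higher in KO at weaning were those in rows 294 and 280. Row 294 held 0%, 0%, 2.06%, 0.230% and 0.286% of bacterial reads in KO and 0 in all 5 WT libraries. It led the genus in libraries 3 and 4. Against a floor of 3 counts per library it was at least 42.6-fold higher in KO, or at least 10.7-fold without library 3 (edgeR, adjusted p = 0.0324). Row 280 held 0.341% in library 3 and 0.648% in library 5 and was at 0 in the other KO and in all WT libraries, at least 16.4-fold higher, or 7.05-fold without library 5 (edgeR, adjusted p = 0.0324). Each call was lost without any 1 of libraries 3, 5, 6, 7, 8 or 9, and that of row 280 also without library 10.

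The variants lower in KO at weaning were at 0 in all 5 KO libraries, so their folds are lower bounds against the same floor. Row 246, the most abundant member of this set by mean share, held 0%, 0.281%, 0.533%, 0.148% and 0.0291% in WT, at least 12.7-fold more than in KO (7.32-fold without library 8; edgeR, adjusted p = 0.00708). Row 345 held 0.0340%, 0.147%, 0.0955%, 0.183% and 0%, at least 5.87-fold more (edgeR, adjusted p = 0.0111). These calls held in all 18 alternatives, while the others were each lost in at least 1.

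Row 291 was the variant found in all 5 WT libraries at weaning and in 0 of 5 KO libraries. It held 0.128%, 0.907%, 0.271%, 0.405% and 0.151%, at least 23.8-fold more than in KO (15.3-fold without library 7), with adjusted p = 0.0324 by edgeR, and the call was lost without library 3 or library 5. Row 243 was found in 3 WT libraries, with 0.281%, 0.453% and 0.0544%, at least 10.1-fold more (5.35-fold without library 7; lost without library 3 and with limma-voom). Row 295 was found in 3 with 0.196%, 0.340% and 0.306%, at least 10.8-fold more, and was lost only with limma-voom among the alternatives run. Row 302, with 0.145%, 0.197% and 0.114% in 3 WT libraries, was at least 5.81-fold more abundant there and was lost without library 1, library 3 or library 5. Adjusted p was 0.0254, 0.0102 and 0.0254 for rows 243, 295 and 302 (edgeR). Row 286, found in 3 WT libraries with 0.524%, 0.157% and 0.306%, did not pass (edgeR, adjusted p = 0.0557).

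The remaining 4 calls rested on few libraries. Row 234 was found in libraries 7 and 10 (0.249% and 0.0397%) and lay at least 3.69-fold above the KO floor, with no fold left without library 7. Row 289 was found in libraries 6 and 8 (0.111% and 0.0573%), at least 2.15-fold, with no fold left without library 6. Rows 290 and 296 were found in library 8 alone (0.160% and 0.168%), at least 2.05-fold and 2.15-fold, so that 1 of 5 WT libraries carried both values. edgeR's adjusted p was 0.0238, 0.0324, 0.0432 and 0.0432 for these 4 rows, and each was lost without any 1 of at least 2 libraries.

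**Figure D2:**
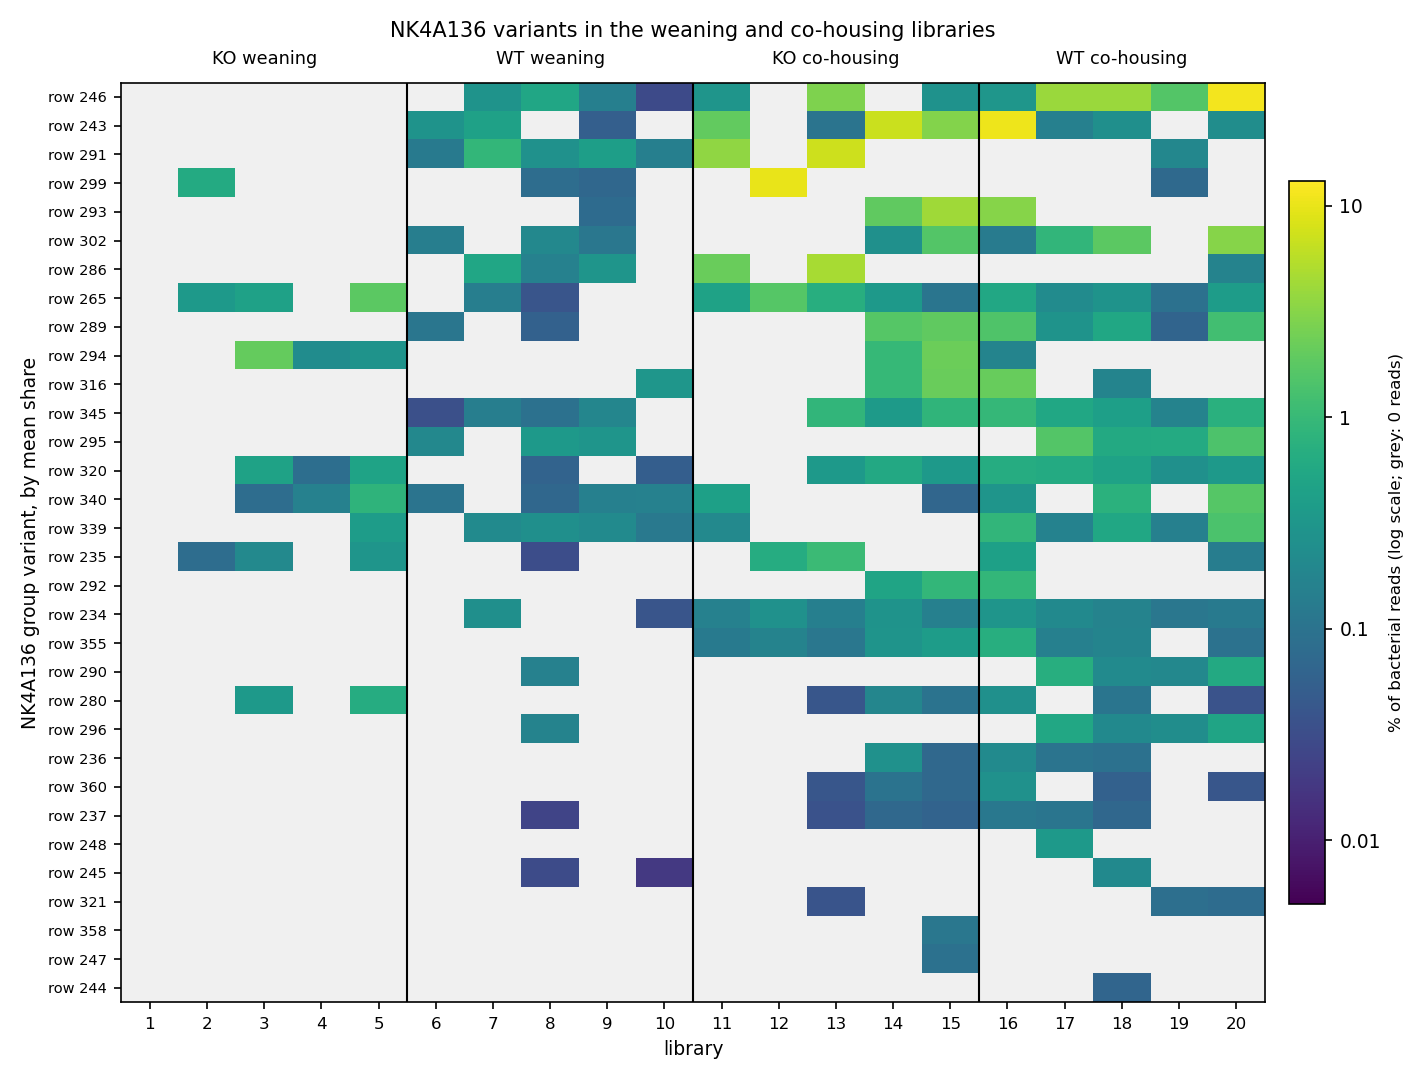
Percent of bacterial reads (colour, log scale; grey for 0 reads) of the 32 NK4A136 group variants found at weaning and after co-housing, 1 row a variant ordered by mean share and 1 column a library. At weaning 8 variants show reads in KO and 21 in WT, and after co-housing 26 in KO and 30 in WT.

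After co-housing 26 members were found in KO and 30 in WT, and 24 of the 32 were found in both, beside 251 of 400 other bacterial variants. Of the 27 tested members 1 was called between the genotypes, where 1.03% of all variants were. It was row 295, at 0 in all 5 KO libraries and at 0%, 1.60%, 0.602%, 0.619% and 1.43% in WT, a fold of at least 68.7 (53.6 without library 17; edgeR, adjusted p = 0.0185). The call was lost without library 12, library 14 or library 15, in the fit of the 2 groups alone and without libraries 1 and 19. With 0 reads in every KO library at weaning too, row 295 entered the test through WT libraries and could only be called lower in KO. The count of 1 is thus a description and no test of the members. Rows 290 and 296 were also at 0 in all co-housed KO libraries and had reads in the same 4 WT libraries, 0.196 to 0.700% and 0.210 to 0.554%, and neither was called (edgeR, adjusted p = 0.0882 each).

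In KO mice 15 of the 27 tested members rose from weaning to co-housing and 0 fell, where 27.1% of all variants changed and 22.6% rose (edgeR, adjusted p under 0.05). The median log2 fold change over the 27 was 6.49 as fitted and 3.54 with groups at 0 set to the floor, beside 1.24 and 0.55 over all tested variants. All 15 were at 0 in every KO library at weaning. Members that entered the test through the co-housed libraries had to be higher there, so these counts and medians too describe the members and are no test of them. Of the other Lachnospiraceae variants 17 of 63 rose and 1 fell, of Oscillospiraceae 11 of 45 rose and 0 fell, and of Bacteroidales, the order that held most reads at weaning, 10 of 79 rose and 10 fell. The count of 15 became 9 without any 1 of libraries 1, 2, 3, 4, 5, 14 or 15, 8 without libraries 1 and 19, 7 in the fit of the 2 groups alone and 5 with limma-voom.

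Of the 15, 11 were variants found at weaning in WT mice alone, and the other 4 (rows 236, 292, 355 and 360) were found at weaning in neither genotype. Row 243 reached 1.95%, 0%, 0.105%, 6.97% and 3.00% in the co-housed KO libraries, at least 154-fold over the weaning floor (80.8-fold without library 14; edgeR, adjusted p = 0.00908). Row 291 reached 3.54% and 7.24% in libraries 11 and 13 and was at 0 in the other 3, at least 138-fold (56.5-fold without library 13; adjusted p = 0.0167). Row 246 reached 0.302%, 2.85% and 0.272% in libraries 11, 13 and 15, at least 43.8-fold (9.18-fold without library 13; adjusted p = 0.00395). Row 345 reached 0.892%, 0.367% and 0.853% in libraries 13, 14 and 15, at least 27.0-fold (edgeR, adjusted p = 0.00395). These variants reached high shares in some co-housed KO libraries and were at 0 in others.

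Rows 234 and 355 instead came up in every co-housed KO library at low and even shares. Row 234 held 0.161%, 0.267%, 0.151%, 0.285% and 0.152%, at least 13.0-fold over the weaning floor (edgeR, adjusted p = 0.0118). Row 355, at 0 in all 10 weaning libraries, held 0.126%, 0.168%, 0.114%, 0.290% and 0.386%, at least 13.8-fold (edgeR, adjusted p = 0.0122). The calls of rows 234, 243, 246, 345 and 355 held in all 18 alternatives. Row 234 was one of the 2 members found in all 10 co-housed libraries, the other being row 265, which KO mice already held at weaning in 3 of 5 libraries (0.340%, 0.446% and 1.80%).

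Of the 15, 6 were found in co-housed KO libraries 14 and 15 and in 0 of the other 3. Row 293 held 1.89% and 4.30% there, at least 79.1-fold over the weaning floor, and row 289 held 1.62% and 1.93%, at least 45.3-fold. Row 316 held 0.961% and 2.15%, at least 39.7-fold, and row 292 held 0.498% and 0.914%, at least 18.0-fold. Adjusted p was 0.0431, 0.00675, 0.0458 and 0.0337 by edgeR, and each call was lost with limma-voom. The calls of rows 293, 316 and 292 were also lost without any 1 of libraries 1 to 5. Those of rows 293 and 316 were lost without library 14 or library 15 too, and row 292 then had too few reads to be tested. Without the higher library 15 the bounds were 30.2, 25.9, 15.4 and 7.95. Row 302 was found in the same libraries (0.261% and 1.61%), at least 23.9-fold, or 4.17-fold without library 15 (edgeR, adjusted p = 0.0141).

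Row 286 rose through libraries 11 and 13 (2.16% and 4.59%, at least 86.3-fold, or 34.5-fold without library 13; edgeR, adjusted p = 0.0254). Rows 236, 237 and 360 reached 0.0365 to 0.271%. Their bounds were 4.37, 2.18 and 2.74, with 1.14, 1.57 and 1.80 without library 14. Their calls (edgeR, adjusted p = 0.0485 each) were lost without any 1 of libraries 1 to 5, 14 or 15, and those of rows 237 and 360 also without library 13. All of these calls were also lost with library size, DESeq2's scaling or test, limma-voom and no filter on low counts. Row 299 was the outlying member: it held 10.1% of bacterial reads in library 12, was at 0 in the other 4 co-housed KO libraries, and was not called.

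In WT mice 0 of the 27 tested members were called from weaning to co-housing by edgeR, where 0.685% of all variants were, and 8 of the 27 had an unadjusted p under 0.05. DESeq2 called 3 and limma-voom 9. The share of all variants called by those methods was not worked out, so these counts are no result about the members. The median log2 fold change was 3.06 as fitted and 2.58 with groups at 0 set to the floor, beside 1.84 and 1.10 over all variants. Members that entered the test through the co-housed libraries alone had to be higher there, so these medians describe the members and are no test of them. Row 246 held a mean of 4.23% ± 4.26 in co-housed WT (0.310%, 3.97%, 3.94%, 1.61% and 11.3%) and of 0.198% ± 0.217 in WT at weaning, and did not pass the test (edgeR, log2 fold change 3.92 ± 1.73, adjusted p = 0.113). It led the genus in 4 of the 5 co-housed WT libraries.

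The change of the genotype difference from weaning to co-housing was called in 3 of the 27 members, all of which gained more in KO on the log2 scale, where 6.16% of all variants were called and 4.11% gained more in KO (edgeR). They were rows 291, 286 and 345. Row 291 went from 0 to a mean of 2.16% ± 3.23 in KO and from 0.372% ± 0.319 to 0.0383% ± 0.0856 in WT, where it was found in 5 of 5 libraries at weaning and 1 of 5 after co-housing (adjusted p = 0.0243, held in all 27 alternatives). Row 286 went from 0 to 1.35% ± 2.04 in KO and from 0.197% ± 0.222 to 0.0337% ± 0.0753 in WT (edgeR, adjusted p = 0.0466, called in 14 of 27 alternatives, and lost without any 1 of libraries 1 to 5, 7, 9, 11, 17, 18 or 19). Row 345 went from 0 to 0.422% ± 0.438 in KO and from 0.0919% ± 0.0760 to 0.561% ± 0.299 in WT, with adjusted p = 0.0482 by edgeR, and was called in 7 of 27 alternatives. Its call was lost without any 1 of libraries 1 to 5, 7 to 9 or 13 to 20, and without libraries 1 and 19. For members at 0 in both KO groups, or at 0 at weaning in both genotypes, this test had no usable error.

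Variants that only WT mice held at weaning made up most of the genus in 4 of the 5 co-housed KO libraries. Of these 15 variants, 11 (73.3%) were found in co-housed KO and 15 in co-housed WT, while of the 123 other bacterial variants found in WT alone at weaning 74 (60.2%) were found in co-housed KO and 94 (76.4%) in co-housed WT. They held 87.0%, 2.09%, 87.2%, 79.3% and 76.1% of genus reads in the co-housed KO libraries, a mean of 66.3% ± 36.2 (SD, n = 5). In the co-housed WT libraries they held 78.0%, 84.9%, 77.1%, 82.7% and 82.3%, a mean of 81.0% ± 3.30, and in WT at weaning 79.4% ± 10.8. Library 12, led by row 299, was the exception. The 2 variants found in KO alone at weaning, rows 280 and 294, held 33.7% ± 29.6 of the genus there (n = 4), 4.00% ± 5.65 in co-housed KO and 0.576% ± 0.776 in co-housed WT. Finding a variant depends on depth, and the same variant may have been present below it in either genotype.

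**Figure D3:**
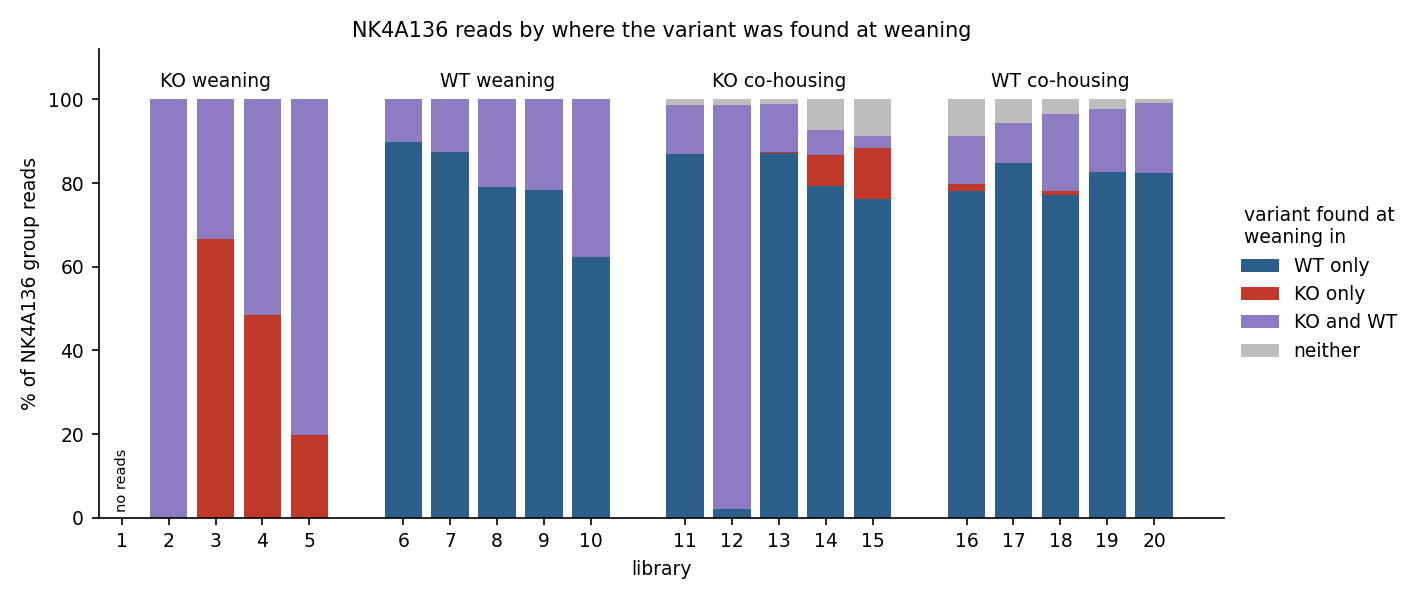
Percent of NK4A136 group reads in each weaning and co-housing library (bars), split by whether the variant was found at weaning in WT alone, in KO alone, in both or in neither. Variants found in WT alone at weaning (blue) make up 76.1 to 87.2% of the genus in co-housed KO libraries 11, 13, 14 and 15 and 2.09% in library 12.

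Co-housed libraries grouped within the genus only partly by genotype. KO library 14 and WT library 16 were each other's nearest, at a Bray-Curtis distance of 0.147, the smallest of all 45 pairs at that time. Both were led by row 243, at 6.97% and 10.5% of bacterial reads, and both held row 293 (1.89% and 3.12%), row 289 (1.62% and 1.50%), row 316 (0.961% and 2.08%) and row 292 (0.498% and 0.919%). KO libraries 11 and 13 were nearest to each other (0.299) and were led by row 291, and WT libraries 17 to 20 were nearest to one another and were led by row 246. The mean distance was 0.772 within KO, 0.481 within WT and 0.784 between the genotypes. Whether such libraries came from the same cage cannot be read from the labels and was not tested.

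After re-separation 31 members were found in KO and 32 in WT, and 28 of the 35 were found in both, beside 293 of 431 other bacterial variants. Of the 35 members 28 had enough reads to be tested. Of these, 2 were lower in KO and 0 higher, where 1.44% of all 278 variants were called and 0.719% were lower. The median log2 fold change over the 28 was -0.76, beside -0.35 over all tested variants. The 2 called members were at 0 in every KO library and entered the test through WT libraries, so they could only be called lower in KO. These counts and medians describe the members and are no test of them. Of 47 other Lachnospiraceae variants 1 was higher and 0 lower, and of 38 Oscillospiraceae variants 0 were called (edgeR, with 1 at an unadjusted p under 0.05).

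Among the members tested, row 1177 had the lowest adjusted p between the re-separated genotypes. It held 0.723%, 0.375%, 2.10%, 0.629% and 1.28% of bacterial reads in WT (532, 172, 1186, 367 and 509 reads) and 0 reads in all 5 KO libraries, which had 53060 to 63593 bacterial reads each. It was thus at least 202-fold lower in KO against a floor of 3 counts per library, or 149-fold without library 28, with adjusted p = 0.00119 by edgeR, and the call held in all 16 alternatives. Row 1241 had the same pattern at lower shares, 0.0408%, 0.0349%, 0.0479%, 0.117% and 0.0579% in WT and 0 in KO, at least 11.8-fold lower (edgeR, adjusted p = 0.0283). That call was lost without any 1 of libraries 26 to 30. They were the only 2 members that reached at least 3 libraries of a genotype and were at 0 in the opposite one, 2 of 35, where 8 of 431 other bacterial variants had this pattern in WT and 9 in KO. As variants of the sets do not match, whether either is one of the earlier variants is not known.

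The other leading members of the re-separation set overlapped between the genotypes. Row 1077, the most abundant, held 0.0588%, 0.0113%, 1.72%, 0.256% and 2.26% in KO and 0.616%, 0.505%, 1.33%, 2.79% and 1.64% in WT. It was one of 3 members found in all 10 libraries, with rows 1105 and 1289, which were picked out after their values were seen. Row 1078 held 0.0318% and 0.0840% in KO libraries 21 and 25 and 0 in the other 3, against 0.0679%, 0.148%, 5.05%, 0.139% and 0.406% in WT. This was not called (edgeR, log2 fold change -5.87 ± 1.94, adjusted p = 0.165). Row 1191 ranged from 0 to 1.55% in KO and 0 to 2.35% in WT, row 1069 from 0.0776 to 0.677% and 0 to 0.909%, row 1170 from 0 to 1.03% and 0.0443 to 0.471%, and row 1239 from 0 to 0.276% and 0.0719 to 0.416%. Row 1173 was led by 1 KO library, with 2.94% in library 23 against 0 to 0.0739% in the other 9, and was not called. By distance within the genus 4 of the 10 libraries were nearest to one of the other genotype, and mean distances were 0.672 within KO, 0.451 within WT and 0.635 between them.

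**Figure D4:**
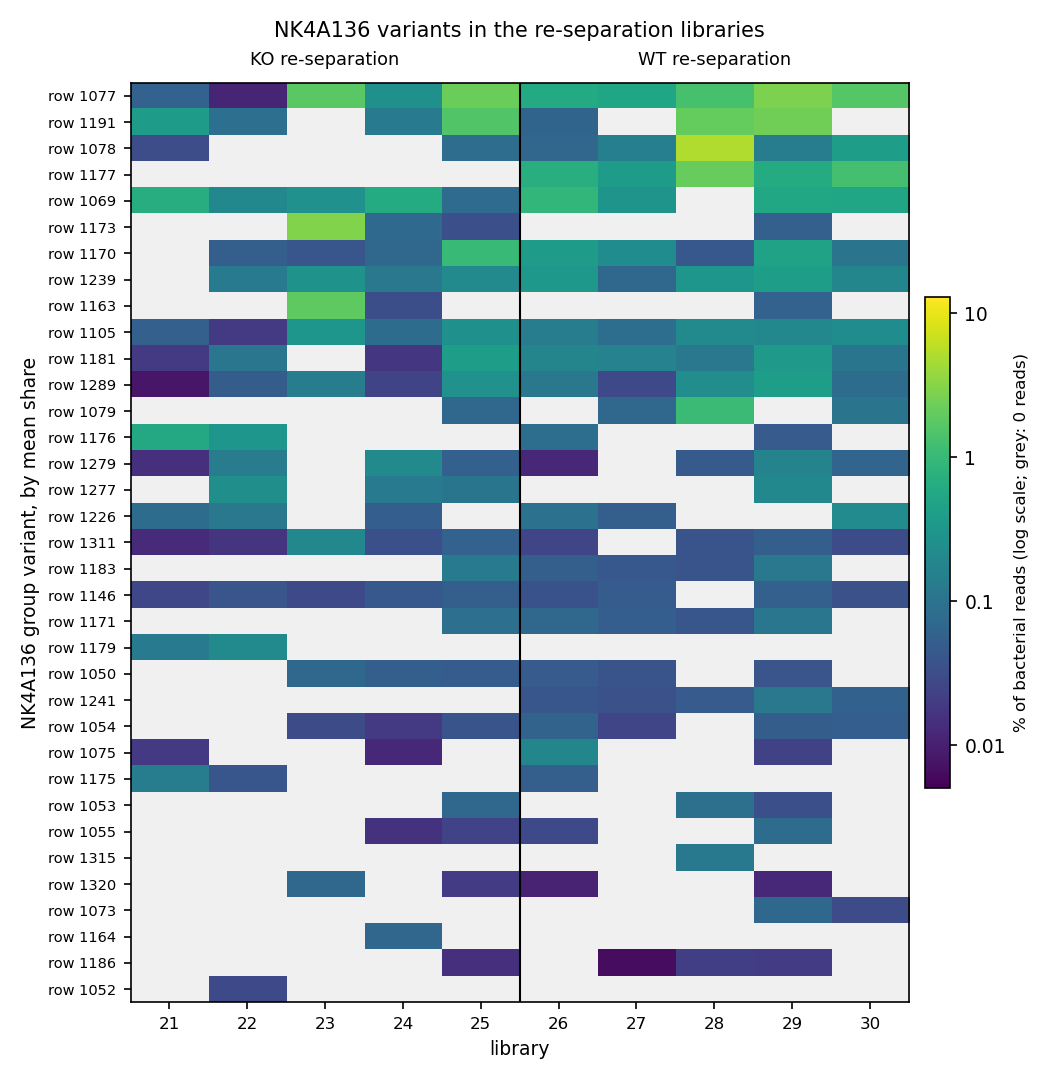
Percent of bacterial reads (colour, log scale; grey for 0 reads) of the 35 NK4A136 group variants found after re-separation, 1 row a variant ordered by mean share and 1 column a library. Rows 1177 and 1241 show reads in all 5 WT libraries and in none of the 5 KO libraries.

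Few variants were even across libraries. The 8 most abundant members held 63.9% of genus reads in the weaning and co-housing set and 73.0% in the re-separation set. A member was found in a median of 6.5 of 20 and 5 of 10 libraries, and 4 and 3 members were found in 1 library each. The 5 members of the first set that were not tested had reads in at most 3 libraries, with at most 0.343% of bacterial reads, and the 7 of the second in at most 4, with at most 0.211%.

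Some members kept a near constant ratio of reads wherever both were found, a pattern picked out after the values were seen and given without a test. Row 286 held 0.577 to 0.756 reads for each read of row 291 in the 5 libraries with both, over shares of row 291 from 0.271% to 7.24%. Rows 290 and 296 were found in the same 5 libraries, always together, at 0.792 to 1.20 reads of row 296 for each of row 290. Row 290 held 0.317 to 0.472 reads for each of row 295, and row 292 held 0.425 to 0.518 reads for each of row 316 and 0.213 to 0.295 for each of row 293. After re-separation row 1183 held 0.267 to 0.338 reads for each of row 1181. Except for rows 290 and 296, members of these pairs were also found alone. Row 291 was found without row 286 in 3 libraries (at most 0.192%) and row 286 without row 291 in 1. Row 316 was found without row 292 in 2 libraries (at most 0.310%) and row 295 without row 290 in 2 (at most 0.306%). Row 293 was found without row 292 in 1 (0.0791%) and row 1181 without row 1183 in 4 (at most 0.111%). Pearson correlations of shares exceeded 0.95 in 7 of the 259 member pairs examined over the 20 libraries and in 7 of 332 over the 10, where the points share each library's depth. Not every pair of members was examined, and in the pairs above 0.95 both members had reads in at least 3 libraries. Members of such pairs are not independent of each other in the counts of variants given here.

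**Figure D5:**
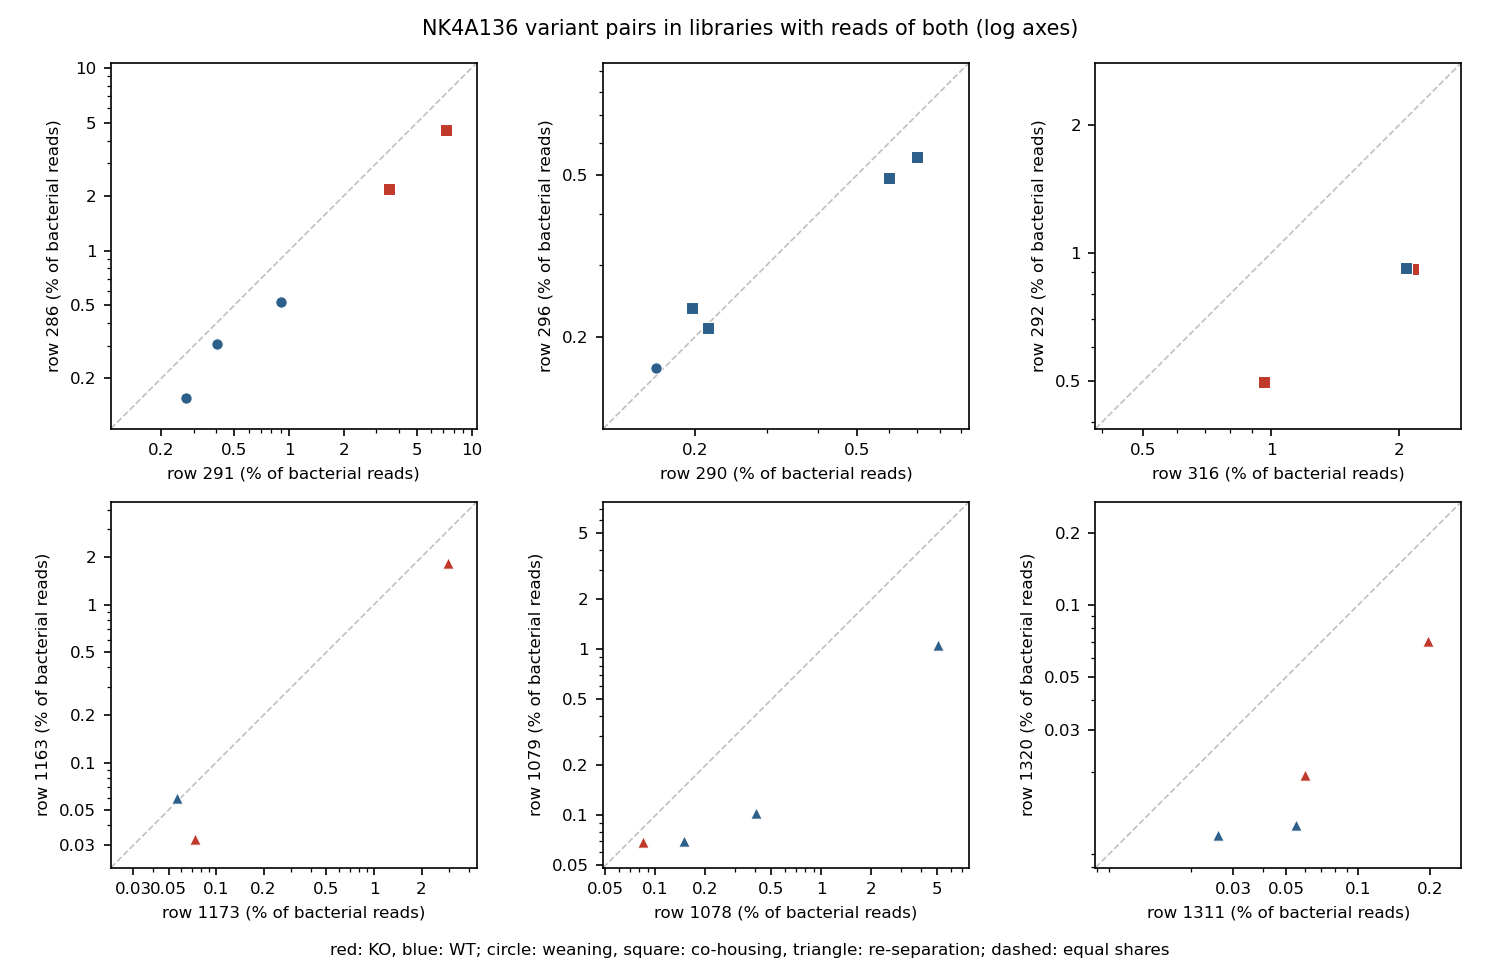
Shares of bacterial reads (log axes) of the 3 pairs of NK4A136 group variants with the highest Pearson correlation in each library set, 1 point a library in which both had reads, with a dashed line where the shares are equal. The points of rows 291 and 286 run along the line at 0.577 to 0.756 reads of row 286 for each of row 291, whereas those of rows 1173 and 1163 spread from 0.447 to 1.06.

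The genera whose shares followed the NK4A136 group most closely over the 20 weaning and co-housing libraries were Mucispirillum (Spearman rho 0.874), a mucus-dwelling genus of another phylum, and Roseburia (0.844), a butyrate-forming relative of the same family. They were followed by Oscillospiraceae without a genus name (0.842), Colidextribacter (0.833) and Butyricicoccus (0.830). The lowest values were those of Parasutterella (-0.865) and Bacteroides (-0.838). Over the 10 re-separation libraries the closest were Ruminococcaceae without a genus name (0.903), Oscillospiraceae without a genus name (0.867), Butyricicoccus and Colidextribacter (0.794 each) and Incertae Sedis (0.782), and the lowest were Parasutterella (-0.758) and Muribaculaceae (-0.721). These are descriptions: shares of a library sum to a fixed total, and the 20 libraries fall into 2 times that differ in most of these genera. Bacteroidales, the order of Bacteroides and Muribaculaceae, held a mean of 61.1% (KO) and 76.3% (WT) of bacterial reads at weaning, 28.0% and 36.9% in the co-housed groups, and 59.5% and 56.6% in the re-separated ones.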

How the data were processed

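The V4 stretch of the bacterial 16S rRNA gene was amplified from stool DNA and sequenced in paired reads on an Illumina MiSeq, per the labels' protocols. The authors deposited raw read counts, in whole numbers, for every variant in each library. The title of the deposited table names DADA2. The submitters' processing notes list R 4.5.1 and limma but not what they were used for. Versions and settings of the denoising, the taxonomic reference and any removal of low counts were not given in the sources used here. All 30 count columns were used, and 0 columns were left out. The 4 mitochondrial variants were left out of totals and tests. Variants of this series come without their sequences, so none are printed.

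Groups were taken from the genotype and time labels. Counts were tested with edgeR's quasi-likelihood test (version 4.0.16 in R 4.3.3), using TMMwsp factors, robust dispersion estimates and 1 coefficient per group, separately for the variants of the 20 weaning and co-housing libraries, the variants of the 10 re-separation libraries, and genera summed over all 30. A variant or genus was tested if 3 or more libraries had 10 or more of its reads. Adjusted p is Benjamini-Hochberg over all features tested, with a threshold of 0.05, and SE is the absolute log2 fold change over the square root of F. Measures with 1 value a library were compared by exact permutation of the genotype labels, two-sided, over all orderings, and adjusted over the 3 times. A fold against a group at 0 is a bound against 3 counts per library in that group, and the fitted fold change of such a variant depends on the prior count and is no bound; medians are also given with such groups at the floor. Since low counts may have been removed, these bounds may be too high. Reads from PCR carry no molecular identifiers here and are not independent, and the intervals and floors cover only counting error.

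Alternatives were TMM, library size, DESeq2 size factors, DESeq2 1.42.0, limma-voom (limma 3.58.1), no filter on low counts, the groups compared alone, and leaving out each library. The change of the genotype difference for single variants and for the 5 measures, and leaving out libraries 1 and 19 together (the library without the genus and the lowest co-housed one), were chosen after the data were seen. Named variants were the 8 most abundant of each set, all called ones, and those found in at least 3 of 5 libraries of one genotype and 0 of the other. The 5 genera most alike were taken by Spearman correlation. The members and taxon lists were chosen with earlier results of these data known. Scripts were tested on simulated data. The other steps ran in Python 3.11.15 (numpy 2.4.6, pandas 2.3.3, scipy 1.17.1), and plots were drawn with matplotlib 3.10.9.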

Additional observations from a re-analysis of the deposited data

Results flagged for a closer look

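The genotype difference in the share of Lachnospiraceae changed by 46.7 percentage points between weaning and co-housing, from -44.1 (KO minus WT) to 2.61. Among single variants the same change was called by edgeR on the log2 scale for row 291 (15.98), row 286 (14.69) and row 345 (7.89); these fitted values depend on the prior count, since each row was at 0 in all KO libraries at weaning, and are no bounds.

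Each group of 5 libraries was also screened for a single library whose gap to the others took over 0.71 of the group's range (Dixon's test). With normally distributed values chance marks about 1 of 20 groups. Of 29 groups for the genus measures, 1 was marked: library 13, where the genus was 80.3% of Lachnospiraceae. Of 77 groups for 31 named variants with any reads, 30 were marked, many of them groups in which 1 library alone had reads. Such a group is always marked, so the chance rate does not apply to the variants.

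Library 16 was marked in 7 variants: row 243 (10.5% of bacterial reads), row 293 (3.12%), row 316 (2.08%), row 292 (0.919%), row 355 (0.699%), row 360 (0.264%) and row 294 (0.174%). Among the other co-housed libraries, library 12 stood apart in row 299 (10.1%), library 13 in row 246 (2.85%), library 14 in row 236 (0.271%) and library 15 in row 302 (1.61%). Library 19 stood apart in rows 291 and 299 (0.192% and 0.0737%) and library 20 in row 286 (0.168%).

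At weaning, library 8 stood apart in rows 290, 296 and 237 (0.160%, 0.168% and 0.0248%) and library 7 in rows 234 and 265 (0.249% and 0.147%). Library 2 did so in row 299 (0.619%), library 3 in row 294 (2.06%), library 5 in row 265 (1.80%), library 9 in row 293 (0.0791%) and library 10 in row 316 (0.310%). After re-separation, library 28 stood apart in row 1078 (5.05%), library 23 in row 1173 (2.94%), library 25 in rows 1191 and 1170 (1.55% and 1.03%) and library 29 in rows 1241 and 1173 (0.117% and 0.0566%).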

How the results depend on the processing

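No paired analysis was possible because the labels number the libraries 1 to 30 and the groups share no number. Of 30 variant calls, 8 held in every alternative, 22 were lost in at least 1 and 0 turned in direction, though rows 290 and 296 at weaning had a fold change of 0 without library 8, the WT library that held their reads. The lower share of the genus within Lachnospiraceae in KO at weaning and the rise of the genus in KO from weaning to co-housing held in every alternative run. Differences of KO minus WT that had passed no test could turn in sign. The share of bacterial reads at weaning was -1.46 as log2, and -0.604 to 0.581 with 1 library left out; after co-housing it was -2.47 without libraries 1 and 19, and -2.47 to 2.65 with 1 left out. For the share of Lachnospiraceae, 1 library left out gave -1.43 to 6.79 after co-housing and -7.87 to 1.51 after re-separation, where Clostridia as the denominator gave 2.78. Variants at equal depth at weaning were -5.40 without libraries 1 and 19 (no longer called) and -7.15 to -4.66 with 1 left out. The inverse Simpson index was -4.26 to -3.01 at weaning, -1.39 to 0.172 after co-housing and -1.23 to 0.289 after re-separation with 1 left out, and the leading share 20.9 to 28.0, -4.81 to 9.17 and -0.976 to 4.00.

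The genus log2 fold change of KO over WT was 0.064 at weaning with library size alone, and after co-housing -0.064 with TMM, -0.037 without libraries 1 and 19, and -0.094 to 0.41 with 1 left out. From weaning to co-housing in WT it was 1.39 with DESeq2's factors, 1.39 with DESeq2's test and 2.10 with limma-voom (none called), and 1.76 to 2.25 with 1 left out. In KO, re-separation against co-housing became called at -1.52 with those groups alone and at -1.54 without libraries 1 and 19, and re-separation against weaning at 3.41 with limma-voom, with 1.34 to 2.20 when 1 was left out. With library size alone the change of the genotype difference was -0.041 to co-housing and -0.77 to re-separation. The cause of these changes was not tested.

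Counts of members called at weaning were 3 with limma-voom and 3 to 12 with 1 library left out. After co-housing they were 4 with limma-voom, 2 without the filter, 0 with the groups alone, 0 without libraries 1 and 19, and 0 to 2 with 1 left out. From weaning to co-housing they were, in WT, 1 with library size, 3 with DESeq2, 9 with limma-voom, 2 with the groups alone, 1 without libraries 1 and 19 and 0 to 1 with 1 left out. In KO they were 5 with limma-voom, 7 with the groups alone, 8 without libraries 1 and 19 and 9 to 16 with 1 left out. After re-separation they were 1 to 2 with 1 left out. The share of all variants called was worked out for the main fit alone. These counts therefore show only how the calls depend on the setting and are no result about the members. Depth limits the low members: no count of a member below 7 reads (3 after re-separation) was recorded.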
